A study of Mus musculus with 29 samples.

Results

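The genes described here code for U6, U6atac and 7SK RNA, and RPC4, a subunit of RNA polymerase III (Pol III), was followed on them in mouse liver before partial hepatectomy (PH) and while the liver regrew. They were taken by name from a table of 646 Pol III loci as every row named Rnu6, Rnu6atac or Rn7sk, which gave 5 Rnu6 copies, 1 Rnu6atac gene and 1 Rn7sk gene, 7 loci in all. Livers of C57BL/6 mice aged 12 to 14 weeks were taken 36, 48 or 60 h after PH (TP36, TP48 and TP60) or before it (TP0), all of the same strain and with no further agent named in the labels. The study did PH early in the light phase, with food at night only. TP36 and TP60 thus fall at another time of day than TP0 and TP48. An effect of that time cannot be told apart from time after PH. Chromatin from whole liver, a pool of 3 mice for each library, was precipitated with an anti-RPC4 antibody, with 2 libraries per time point (replicates 1 and 2), so that each value is an average over all cell types of the liver. The value of a locus is a score, the log2 ratio of ChIP over input fragments in the RNA-coding region and its flanks, with a pseudocount that pulls low scores towards 0. A score 1 unit higher is therefore about 2-fold more enrichment, and somewhat more than that at low counts. Each library has its own cutoff for occupancy, between 0.81 and 0.87 in replicate 1 and between 1.33 and 1.55 in replicate 2. The table holds no fragment counts, so the depth of a score is not known.

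U6 small nuclear RNA is part of the catalytic core of the major spliceosome, and U6atac takes its place in the minor spliceosome, which removes a small class of introns. 7SK RNA is the scaffold of a ribonucleoprotein that holds the elongation factor P-TEFb inactive and so bears on transcription by Pol II. These genes are unusual among Pol III genes in that their promoters, called type 3, lie outside the transcribed region. A proximal sequence element (PSE) bound by the complex SNAPc and a TATA box bound by a form of TFIIIB with BRF2 make up the core promoter, and a distal element often holds an octamer read by POU2F1 or an SPH site read by ZNF143. tRNA genes, in contrast, carry their promoter elements inside the gene.

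The 5 Rnu6 copies are named here by chromosome. In NCBI37/mm9 they lie at chr9:62981090-62981196 (Rnu6-chr9), chr10:79371940-79372046 (Rnu6-chr10a), chr10:79448251-79448357 (Rnu6-chr10b), chr12:53704775-53704881 (Rnu6-chr12a) and chr12:53705477-53705578 (Rnu6-chr12b). Rnu6atac lies at chr2:27395325-27395450 and Rn7sk at chr9:78023110-78023440. The first 102 bases of the RNA were identical in the 5 copies, and an exact match to these bases was present 47 times in the assembled genome, on 18 chromosomes, while GENCODE vM1 annotates 936 snRNA genes under the name U6. The other copies are not analysed here. The coding sequence of U6atac is shown because it marks this gene off from the Rnu6 copies, with the box that pairs with the 5′ splice site in capitals. For Rn7sk the first 100 bases are shown, with the GATC motifs of the 5′ hairpin, the region that binds HEXIM proteins, in capitals.
U6atac: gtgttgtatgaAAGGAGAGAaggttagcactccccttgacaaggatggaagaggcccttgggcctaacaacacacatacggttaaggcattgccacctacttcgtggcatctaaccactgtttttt
7SK: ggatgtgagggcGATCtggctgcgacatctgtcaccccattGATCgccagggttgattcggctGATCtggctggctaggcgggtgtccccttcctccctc

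The copies differ in what precedes the RNA. The 80 bases before the RNA start are shown for all 7 genes because the core promoter elements fall in them, read 5′ to 3′ on the strand of the gene from the NCBI37 genome. Capitals mark exact matches to the PSE core ACCNTNA and to the TATA-box letters TATANA on that strand.
Rnu6-chr9: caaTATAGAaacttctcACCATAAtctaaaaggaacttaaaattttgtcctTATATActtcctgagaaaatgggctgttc
Rnu6-chr10a: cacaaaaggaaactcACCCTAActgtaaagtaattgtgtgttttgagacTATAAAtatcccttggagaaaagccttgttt
Rnu6-chr10b: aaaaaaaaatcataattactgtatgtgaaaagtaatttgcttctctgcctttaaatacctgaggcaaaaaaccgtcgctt
Rnu6-chr12a: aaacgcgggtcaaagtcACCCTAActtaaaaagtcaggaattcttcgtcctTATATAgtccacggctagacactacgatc
Rnu6-chr12b: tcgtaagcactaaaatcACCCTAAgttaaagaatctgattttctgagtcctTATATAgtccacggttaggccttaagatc
Rnu6atac: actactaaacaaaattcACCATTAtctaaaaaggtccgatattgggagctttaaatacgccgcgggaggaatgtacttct
Rn7sk: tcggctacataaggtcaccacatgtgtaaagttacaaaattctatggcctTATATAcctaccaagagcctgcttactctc
Over these 80 bases the pairs of Rnu6 copies were identical at 38.8 to 50% of positions, except for the chromosome 12 pair, which shared 68.8%. These matches describe letters only and say nothing of binding.

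Motifs were searched on both strands in 250 bases before to 50 bases after the start, and the same search was run in 32851 RefSeq promoters (GRCm38.p6) of that length, among which these 7 genes are not listed. The octamer ATGCAAAT was present in 5 of 5 Rnu6 copies, between positions -250 and -202 counted from the RNA start, but in neither Rnu6atac nor Rn7sk, and in 1.74% of promoters. The PSE core began at position -63 in Rnu6-chr9, Rnu6-chr12a, Rnu6-chr12b and Rnu6atac and at -65 in Rnu6-chr10a, while 32.4% of promoters held it somewhere in the window. In Rn7sk these letters began only at -122, and Rnu6-chr10b had none. Only exact matches were searched for, so a PSE with other letters would be missed in either gene. A longer PSE form, with AAAG 4 bases after the core and present in 0.216% of promoters, was found in Rnu6-chr9 and Rnu6-chr10a. The TATA-box letters, found in 24.7% of promoters, began between -31 and -29 in 4 Rnu6 copies and in Rn7sk. In these 4 copies the TATA-box letters began exactly 34 bases after the PSE core, a spacing found on the gene strand of 5 promoters (0.0152%) and looked for after the sequences had been seen. Rnu6-chr10b and Rnu6atac had TTTAAATA at the TATA position, from -31 to -24, and 1.81% of promoters held these letters, which were also picked after the sequences had been seen. The SPH letters, CCCA with ATGC 2 bases after it, occurred in Rnu6-chr12a alone and in 1.88% of promoters. The promoter of Rnu6-chr10a is given in full over 250 bases because it shows the octamer, the PSE core and the TATA box together (chr10:79371690-79371939, plus strand), with every match to them on either strand in capitals.
Rnu6-chr10a: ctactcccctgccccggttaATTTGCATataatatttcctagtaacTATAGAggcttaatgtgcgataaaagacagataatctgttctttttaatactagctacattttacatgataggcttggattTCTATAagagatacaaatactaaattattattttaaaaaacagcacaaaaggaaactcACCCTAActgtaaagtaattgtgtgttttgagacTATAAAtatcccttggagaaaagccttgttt

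**Figure D1:**
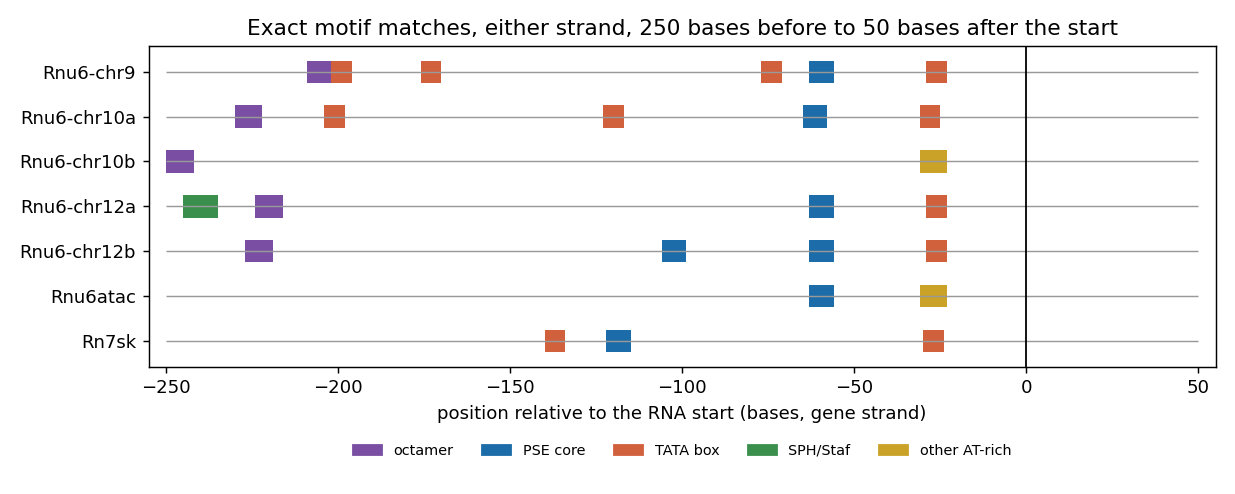
Exact matches to the searched letters, either strand, drawn by distance from the RNA start in bases for the 7 genes; each box is 1 match and the vertical line is the start. The PSE core and TATA box line up in Rnu6-chr9, Rnu6-chr10a, Rnu6-chr12a and Rnu6-chr12b, while Rnu6-chr10b has only the octamer and, at the TATA position, the other AT-rich letters TTTAAATA.

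None of the 7 genes lies within a protein-coding gene of GENCODE vM1. Rnu6-chr10a starts 257 bp from the start of Med16, a Mediator subunit gene, and Rnu6-chr10b starts 1176 bp from the start of ORF61, each time on the opposite strand and pointing away from it. Rn7sk and the long noncoding RNA gene C920006O11Rik start 281 bp apart on opposite strands, and Rnu6atac and Gm13421, another long noncoding RNA gene, start 496 bp apart. For Rnu6-chr9 the nearest annotated start of any gene, that of Skor1, is 15678 bp away and the body of that gene 4781 bp, whereas the deposited table classes this copy as nearer than 2.65 kb to a Pol II gene. The annotation behind that class was not used here. The chromosome 12 copies have only each other nearby and converge, with 595 bp between their 3′ ends. The table puts both in its class of loci under 1.5 kb from another Pol III locus. The study mainly left such loci out when it grouped loci by their peaks at TP0. Its comparison of RPC4 over time took in all loci. How far signal of one copy enters the score of the other was not tested. In the table both carry the minus strand, whereas GENCODE places Rnu6-chr12a on the plus strand, and the plus strand was used here for its sequence. The chromosome 10 copies are 76.2 kb apart.

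RPC4 was found on all 7 genes. Of the 7, 6 were above the cutoff in all 8 libraries, against 344 of the 646 loci of the table (53.3%), and the exception was Rnu6-chr10b, which missed in replicate 2 of TP36 with a score of 1.548 at a cutoff of 1.550. Fragments with several matches on the genome gave 0.114 to 2.15% of the score of the Rnu6 copies, at most 0.001% for Rnu6atac and 4.09 to 11.4% for Rn7sk, so the scores of the U6 copies rest mainly on fragments placed at 1 position. Rnu6atac had the highest scores, at 4.78 and 5.0 at TP0, 6.04 and 5.43 at TP36, 6.02 and 6.56 at TP48, and 5.14 and 6.48 at TP60 (replicates 1 and 2 here and in the lists that follow). Its mean over the 8 libraries was 5.68 ± 0.68 (SD, n = 8). At TP0 it ranked 78th of the 492 loci that passed the cutoff in at least 1 library. Rn7sk followed with 4.11 and 4.59 at TP0, 5.49 and 5.23 at TP36, 5.57 and 5.32 at TP48, and 4.23 and 5.67 at TP60 (mean 5.03 ± 0.62). Its RNA-coding region is longer, at 331 bp against 126 bp for Rnu6atac and 102 to 107 bp for the Rnu6 copies, and the score is a ratio to input over the same stretch.

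The 5 Rnu6 copies, whose RNA is the same over 102 bases, stood at 2 levels. Rnu6-chr12a had scores of 3.02 and 4.21 at TP0, 4.34 and 3.64 at TP36, 4.82 and 4.78 at TP48, and 3.48 and 4.56 at TP60 (mean 4.11 ± 0.66). Its neighbour Rnu6-chr12b had 2.54 and 4.18 at TP0, 3.98 and 4.04 at TP36, 4.55 and 4.36 at TP48, and 3.21 and 5.14 at TP60 (mean 4.0 ± 0.80). Rnu6-chr10a had 2.48 and 3.5 at TP0, 4.29 and 3.67 at TP36, 4.46 and 3.99 at TP48, and 3.56 and 4.74 at TP60 (mean 3.83 ± 0.71). These 3 copies were near the middle of the occupied loci, since 49.0 to 53.5% of the 492 loci had a lower mean. Rnu6-chr9 had only 1.20 and 2.15 at TP0, 2.49 and 1.74 at TP36, 2.11 and 2.54 at TP48, and 1.76 and 2.67 at TP60 (mean 2.08 ± 0.50). Rnu6-chr10b had 1.29 and 2.45 at TP0, 2.22 and 1.55 at TP36, 2.17 and 1.57 at TP48, and 1.84 and 2.21 at TP60 (mean 1.91 ± 0.41). The highest and the lowest copy of a library differed by 1.79 to 3.21 score units, or 3.47- to 9.28-fold.

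**Figure D2:**
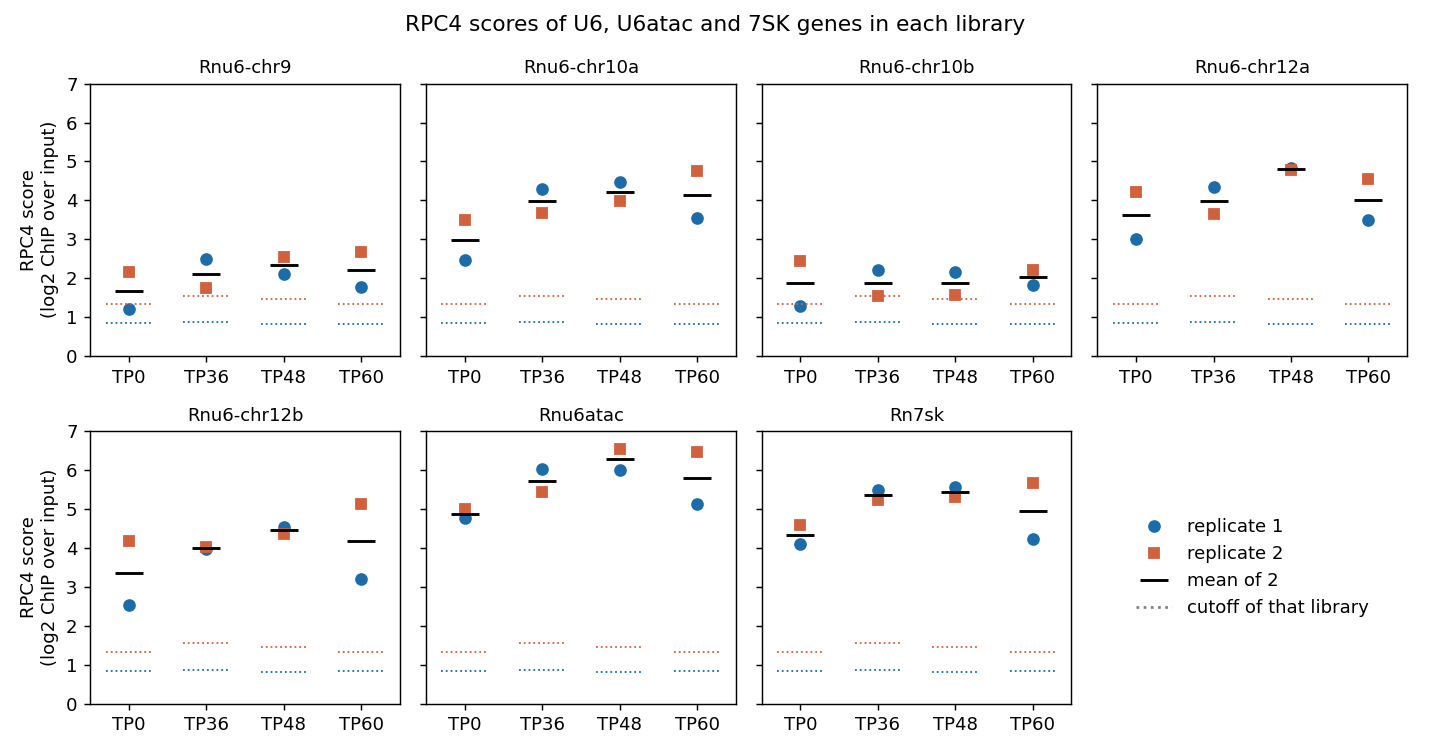
RPC4 score (log2 ChIP over input, y axis) of each gene in the 8 libraries by time point (x axis); circles are replicate 1, squares replicate 2, bars the mean of 2, and dotted lines the cutoff of the library in the same colour. Rnu6atac lies between 4.78 and 6.56, and Rnu6-chr10b stays between 1.29 and 2.45, from at its cutoff in replicate 2 of TP36 to 1.36 above it in replicate 1 of TP48.

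Within a library the difference of a pair of genes is free of a shift that moves both scores equally. Because of the pseudocount, a change of the whole library need not move a low and a high score equally. The 21 pairs were compared over the 8 libraries with a two-sided exact sign-flip permutation test and Benjamini-Hochberg adjustment over the pairs. In 17 of the 21 pairs the same gene was higher in 8 of 8 libraries (exact permutation p = 0.00781, the smallest the test can give, adjusted p = 0.00965). Read from the top, Rnu6atac exceeded Rn7sk by 0.65 ± 0.32 (SD, n = 8), and Rn7sk exceeded Rnu6-chr12a by 0.92 ± 0.39. The next 3 did not differ beyond their spread. Rnu6-chr12a minus Rnu6-chr12b was 0.11 ± 0.40 with a range of -0.59 to 0.48 (adjusted exact p = 0.453), Rnu6-chr12b minus Rnu6-chr10a was 0.17 ± 0.36 with a range of -0.35 to 0.68 (adjusted exact p = 0.216), and Rnu6-chr12a minus Rnu6-chr10a was 0.27 ± 0.38 with a range of -0.19 to 0.80 (adjusted exact p = 0.128). A step followed, Rnu6-chr10a exceeding Rnu6-chr9 by 1.75 ± 0.37, or 3.37-fold. Rnu6-chr9 and Rnu6-chr10b did not differ beyond their spread, at 0.17 ± 0.41 with a range of -0.30 to 0.98 (adjusted exact p = 0.287). With Holm adjustment none of the 21 pairs passed, because the smallest possible p then becomes 0.164. The labels give each replicate a series number and do not say how far the preparations were separate, so p-values measure the spread between these libraries.

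After PH the scores of these genes were mostly higher, and how many changes exceeded the spread between replicates depended on the fit. At TP48 3 of the 7 genes passed the test against TP0, and among all loci 51.5% passed (247 of 480 above the cutoff at either time point). When only TP48 and TP0 were fitted 6 of 7 passed, with 431 loci, and with a replicate block 1 of 7 passed, with 197 loci. At TP36 and at TP60 0 of 7 passed, against 29% (141 of 487) and 57.3% (279 of 487) of loci. The test was the moderated statistic of limma with 1 mean per time point, fitted to all 646 loci, and a q-value below 0.05 counted as passing. Among the 7 genes 0 had an unadjusted p below 0.05 at TP36 or TP60, and with Benjamini-Hochberg adjustment in place of q 0 of 7 passed at any time point, against 18.9%, 27.7% and 36.1% of loci at TP36, TP48 and TP60. All these gains were relative to the authors' scaling. In an alternative added after the scores had been seen, each library was shifted by the median deviation of the 492 loci above the cutoff in at least 1 library. With it 0 of 7 passed upwards at any time point, against 17.2%, 20.2% and 28.3% of loci at TP36, TP48 and TP60.

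Rnu6atac gained most at TP48, with 6.02 and 6.56 against 4.78 and 5.0 at TP0, a change of 1.40 (SE 0.51, 2.64-fold, limma q = 0.0297). Both of its TP48 libraries lay above both TP0 libraries. Rnu6-chr10a had 4.46 and 3.99 at TP48 against 2.48 and 3.5 at TP0, a change of 1.24 (SE 0.53, 2.35-fold, limma q = 0.0448). Rnu6-chr12a had 4.82 and 4.78 at TP48 against 3.02 and 4.21 at TP0, a change of 1.19 (SE 0.53, 2.28-fold, limma q = 0.0498). The Rnu6 calls were just inside the threshold, and Rn7sk was just outside it, with 5.57 and 5.32 at TP48 against 4.11 and 4.59 at TP0 (1.10, SE 0.51, limma q = 0.0526). Rnu6-chr12b (1.09, SE 0.67, limma q = 0.0919) and Rnu6-chr9 (0.65, SE 0.51, limma q = 0.131) did not pass. Rnu6-chr10b showed no difference in its mean, with 2.17 and 1.57 at TP48 against 1.29 and 2.45 at TP0, and its 95% limits ran from -1.10 to 1.10.

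All 3 calls were lost when either TP0 library or either TP48 library was left out. Over the whole table more loci passed at TP48 without a TP36 or TP60 library than with all 8 libraries. Fewer loci passed in each fit without a TP0 or TP48 library. The change itself then lay between 1.13 and 1.67 for Rnu6atac, between 0.72 and 1.75 for Rnu6-chr10a and between 0.59 and 1.78 for Rnu6-chr12a, and for the last it was 1.17 and 1.21 without a TP48 library. A replicate block left the call of Rnu6atac (limma q = 0.0407) and took those of Rnu6-chr10a and Rnu6-chr12a just past the threshold (limma q = 0.0561 for each) at the same changes. Leaving out a TP36 library gave 4 calls of 7 at TP48, and leaving out a TP60 library gave 5, Rn7sk being the added gene in each case and Rnu6-chr12b the other in the second. At TP36 the result of 0 calls became 3 (Rnu6atac, Rn7sk and Rnu6-chr10a) without replicate 2 of TP36, whose scores were lower than those of replicate 1 for most loci, by a median of 0.91. At TP60 it became 4 (Rnu6atac, Rn7sk, Rnu6-chr10a and Rnu6-chr12b) without replicate 1 of TP60, which was lower than replicate 2 by a median of 0.86, and 1 (Rnu6-chr10a) without either TP36 library. The calls over all loci moved with them, to 332 without replicate 2 of TP36 and to 387 without replicate 1 of TP60.

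At TP36 the largest changes were those of Rn7sk, with 5.49 and 5.23 against 4.11 and 4.59 at TP0 (1.01, SE 0.51, limma q = 0.0997), and of Rnu6-chr10a, with 4.29 and 3.67 against 2.48 and 3.5 (0.99, SE 0.53, limma q = 0.115). Rnu6atac had 6.04 and 5.43 against 4.78 and 5.0 at TP0 (0.85, SE 0.51, limma q = 0.142). In these 3 genes both TP36 libraries lay above both TP0 libraries, which was true of 68.2% of loci. At TP60 the largest was that of Rnu6-chr10a, with 3.56 and 4.74 against 2.48 and 3.5 at TP0 (1.16, SE 0.53, limma q = 0.0530). Of the 7, Rnu6-chr10a and Rnu6atac lay above both TP0 libraries in both TP60 libraries, against 83.4% of loci, and 5 of 7 did so at TP48, against 92.1% of loci. The same 2 genes were the ones whose 6 libraries after PH all exceeded both TP0 libraries, 2 of 7 against 58.5% of loci.

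**Figure D3:**
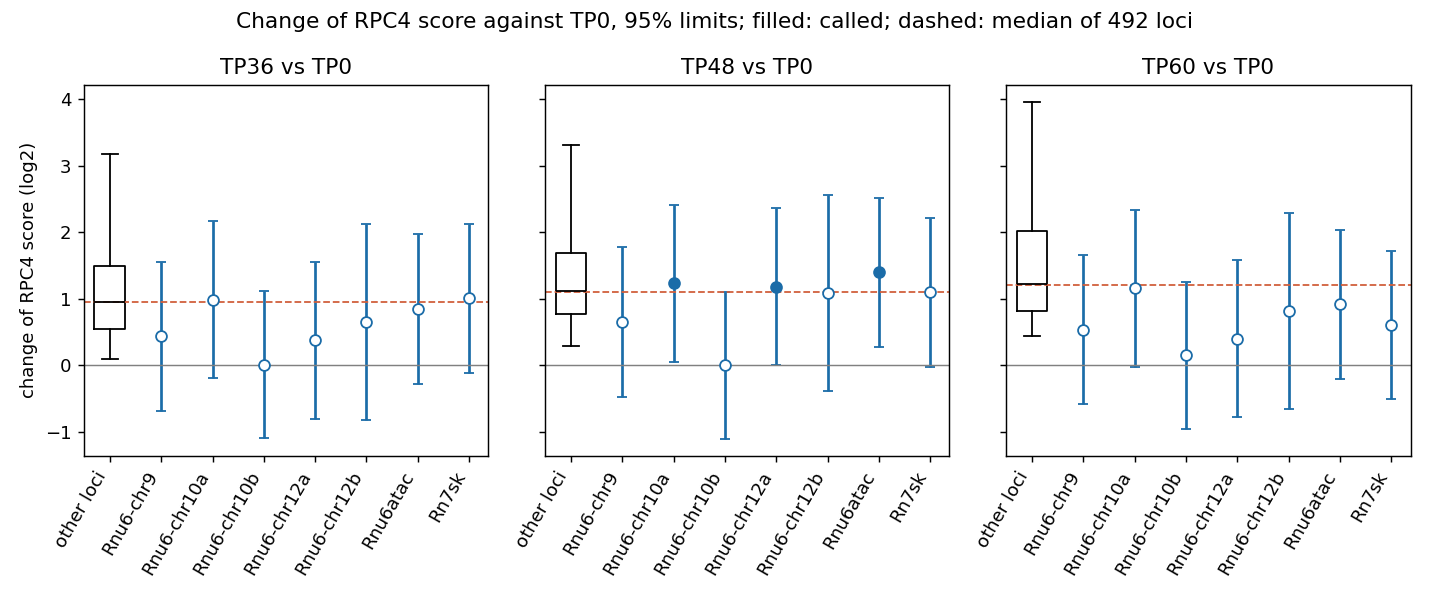
Change of RPC4 score against TP0 (log2, y axis) for each gene with its 95% limits from limma, filled where the q-value passed 0.05; the box spans the quartiles and the whiskers the 5th to 95th percentile of the other loci, and the dashed line is the median of 492 loci. The genes lie at or under the dashed line except Rn7sk and Rnu6-chr10a at TP36 and Rnu6atac, Rnu6-chr10a and Rnu6-chr12a at TP48, and relative to that line most directions turn.

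Set beside all loci, most of these genes changed less than the median locus. The study found its significant changes at TP36 among loci with low to medium TP0 scores, and few among those with high ones. At TP0 between 41.3% (Rnu6-chr9) and 84.1% (Rnu6atac) of the 492 loci lay below these genes. Changes were not compared among loci of similar TP0 score. The median change of the 7 genes was 0.65 at TP36, 1.10 at TP48 and 0.61 at TP60, against 0.95, 1.11 and 1.21 for the 492 loci (1.93-, 2.16- and 2.31-fold). The number of the 7 that changed less than the median locus was 5 at TP36, 4 at TP48 and 7 at TP60. Rnu6-chr10b was close to the bottom at every time point, since 2.64% of the 492 loci changed less at TP36, 3.05% at TP48 and 4.07% at TP60. Rnu6-chr9 had 18.9%, 15.4% and 12.2% of loci below it. Rnu6-chr12a moved most within the ranking, with 15.9%, 55.7% and 4.88% of loci below it.

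The table's scores hold no outside standard, so from the scores alone a gain shared by all loci cannot be told apart from a difference in the precipitation or scaling of the libraries. Apart from the scores, the study reported higher levels of some precursor tRNAs after PH by RT-qPCR. RNA of the genes described here was not among those it reported. When each library was shifted by the median deviation of the 492 loci (by 0.94 at TP36, 1.18 at TP48 and 1.32 at TP60 relative to TP0, an alternative added after the scores had been seen), 0 of the 7 genes passed upwards at any time point. Downwards 0 of 7 passed at TP36, 1 at TP48 (Rnu6-chr10b, -1.18) and 4 at TP60, namely Rnu6-chr10b (-1.17), Rnu6-chr12a (-0.92), Rnu6-chr9 (-0.78) and Rn7sk (-0.72). The shares of all loci that passed downwards were 3.7%, 6.25% and 16.8% at TP36, TP48 and TP60, and those that passed upwards were 17.2%, 20.2% and 28.3%. Centring each library on its median score, which subtracts 1.81 at TP36, 2.02 at TP48 and 2.24 at TP60, turned all 7 genes downwards past the threshold at each time point, as it did 72.7%, 77.3% and 75.6% of loci, with 13.1%, 16.2% and 17.5% passing upwards. These amounts exceed the median change of the 492 loci (0.95, 1.11 and 1.21). They also exceed the largest change among the 7 genes (1.01, 1.40 and 1.16), so the negative signs follow from the amount subtracted.

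Between the time points after PH 0 of 7 genes and 0 of 488, 490 and 487 loci passed for TP48 against TP36, TP60 against TP36 and TP60 against TP48, which is 0% of loci with q-values and with Benjamini-Hochberg adjustment in limma. At an unadjusted p below 0.05 there were 5, 7 and 15 loci and 0 of the 7 genes. At TP60 against TP48 6 of the 7 genes were lower than the median locus, with a median of -0.28 for the 7 and 0.09 for the 492 loci. Rnu6-chr12a differed by -0.78 between TP60 and TP48, with 3.48 and 4.56 at TP60 against 4.82 and 4.78 at TP48, and 0.407% of loci had a lower value. At TP48 against TP36 both of its libraries and both of Rnu6-chr12b lay above, as in 12.1% of loci. None of the 7 had both TP60 libraries above both of TP36 or both of TP48, which was so at 7.14% and 11.3% of loci.

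The copies on chromosome 10 lay further apart after PH than at TP0, in a pattern that did not pass adjustment. Rnu6-chr10a minus Rnu6-chr10b was 2.07 and 2.12 at TP36, 2.29 and 2.42 at TP48, and 1.72 and 2.54 at TP60, against 1.19 and 1.05 at TP0. All 6 libraries after PH lay above both TP0 libraries, and the difference averaged 2.19 after PH against 1.12 at TP0. This pattern was noticed in the scores and then tested, for every one of the 21 pairs, with a two-sided exact permutation of the 2 TP0 labels over the 8 libraries (28 splits). For this pair p was 0.0357, the smallest the test can give, and after adjustment over the 21 pairs 0.375, so it did not pass. A lone pair at that smallest p could not have passed this adjustment, so the failure to pass decides nothing. No other pair had an unadjusted p below 0.05. The chromosome 12 pair and the pair of Rnu6atac and Rn7sk showed no such step, with differences after PH 0.20 lower (exact permutation p = 0.75) and 0.15 higher (exact permutation p = 0.607) than at TP0. Relative to Rnu6-chr10b, however, every other gene stood higher after PH than at TP0. The rise was 1.07 for Rnu6-chr10a, 1.00 for Rnu6atac, 0.85 for Rn7sk, 0.80 for Rnu6-chr12b, 0.60 for Rnu6-chr12a and 0.49 for Rnu6-chr9. The step was thus not particular to the chromosome 10 pair. The letters before these genes are described above by exact matches only. Whether they, or the pseudocount at the low scores of Rnu6-chr10b, bear on these differences was not tested.

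**Figure D4:**
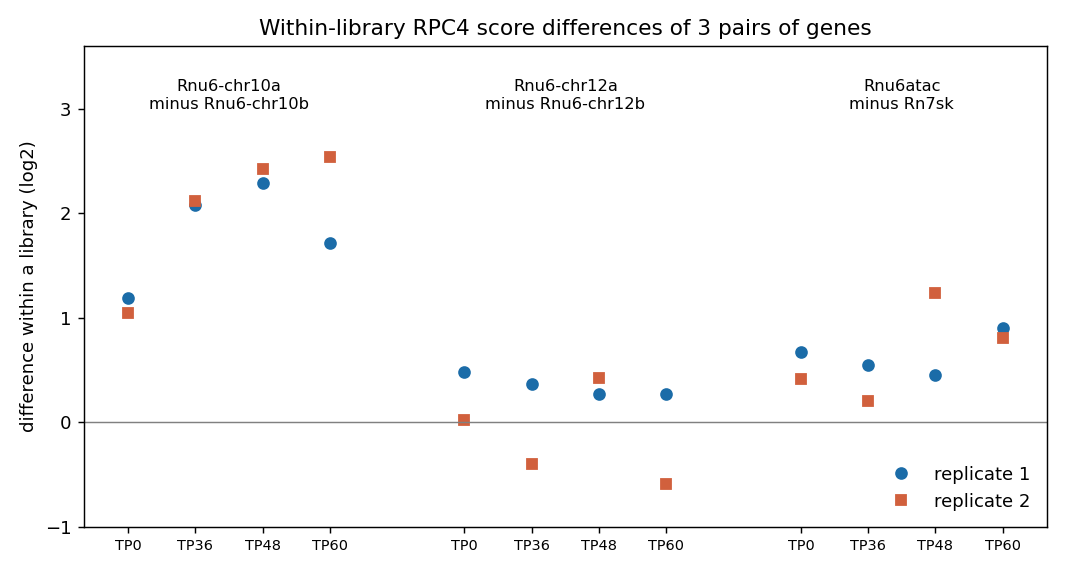
Difference of RPC4 score within a library (log2, y axis) for 3 pairs of genes by time point (x axis), replicate 1 as circles and replicate 2 as squares. The chromosome 10 pair lies at 1.72 or more in the 6 libraries after PH and at 1.19 and 1.05 at TP0, while the chromosome 12 pair lies on both sides of 0. Other pairs with Rnu6-chr10b, whose mean differences moved the same way, are not drawn.

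The replicates of TP0 differed on the 5 Rnu6 copies, always in the same direction. Replicate 1 minus replicate 2 was -0.96 for Rnu6-chr9, -1.02 for Rnu6-chr10a, -1.16 for Rnu6-chr10b, -1.19 for Rnu6-chr12a and -1.64 for Rnu6-chr12b, while the median of the 492 loci was 0.01. For each of these copies at most 4.07% of the 492 loci had a lower value, and for Rnu6-chr12b 0 of them did. Rnu6atac (-0.22) and Rn7sk (-0.48) were nearer to the median, with 32.7% and 22.8% of loci lower. The TP0 mean of each Rnu6 copy therefore carries an SD of 0.68 to 1.16 (n = 2), against 0.16 for Rnu6atac and 0.34 for Rn7sk. A lower replicate 1 at TP0 was not particular to the Rnu6 copies. Of the other genes with a type 3 promoter, n-Ts2 had 3.15 and 4.09 there and Rmrp 3.48 and 4.28. Rny1 had 2.50 and 3.08 and Rny3 4.38 and 4.77, while Rpph1 went the other way with 1.97 and 1.86. The cause was not tested. At TP60 all 7 genes were again lower in replicate 1, by 0.37 to 1.93, but there the median locus was lower by 0.86 as well. Rnu6-chr12b had the widest gap at both time points, while its 2 libraries differed by 0.06 at TP36.

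**Figure D5:**
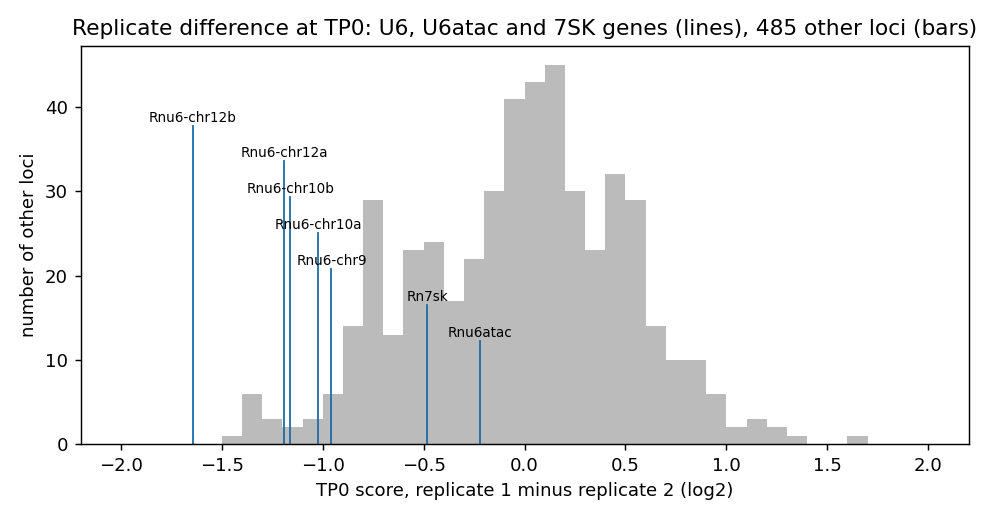
Score of replicate 1 minus replicate 2 at TP0 (log2, x axis) for the 485 other loci (bars, number of loci on the y axis) and for the 7 genes (named lines, whose height has no meaning). The 5 Rnu6 copies lie between -1.64 and -0.96, in the lower tail, and Rnu6atac and Rn7sk lie at -0.22 and -0.48.

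By the root mean square difference of the 8 scores, the locus most alike to each gene among 485 other loci was a tRNA gene for 4 of the 7, where 61.4% of the loci searched (298 of 485) were tRNA genes. These were the tRNA-Asn gene n-Tn6 for Rnu6atac (0.20), the tRNA-Cys gene n-Tc51 for Rnu6-chr10a (0.32), the tRNA-Trp gene n-Tw6 for Rnu6-chr12a (0.34) and n-Ts2, the gene for selenocysteine tRNA, for Rnu6-chr12b (0.41). Rn7sk was most alike to Rny3, a Y RNA gene (0.23), Rnu6-chr9 to a 5S rRNA gene on chromosome 8 (0.40) and Rnu6-chr10b to a B2 SINE on chromosome 5 (0.52). The measure covers level and time course together.

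The other genes with a type 3 promoter in the table are Rpph1 and Rmrp, for the RNAs of RNase P and RNase MRP, the Y RNA genes Rny1 and Rny3, and n-Ts2. All 5 had positive changes, the smallest being 0.64, 0.59 and 0.49 at TP36, TP48 and TP60. Of these 5, 2 passed upwards at each time point, Rny1 and Rpph1. Of the 7 genes described here 0, 3 and 0 passed, and of all loci 29%, 51.5% and 57.3%. The difference in counts was not tested. Rpph1 had 4.01 and 3.45 at TP36 against 1.97 and 1.86 at TP0 (1.82, SE 0.42, limma q = 0.00805), and Rny1 had 4.64 and 4.76 at TP48 against 2.50 and 3.08 at TP0 (1.91, SE 0.51, limma q = 0.00911). The 5 genes had median changes of 1.18, 1.02 and 0.81 at TP36, TP48 and TP60, beside 0.95, 1.11 and 1.21 for the 492 loci. Among 4 rows named Rn7sl, Vaultrc5 or Bc1, whose promoters are of another type, 0 passed at any of the 3 time points and 3 were above a cutoff, with 1 of them at an unadjusted p below 0.05 at TP36.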

How the data were processed

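Liver chromatin was analysed by paired-end ChIP-seq of RPC4, in 8 of the 29 samples of the series, 2 per time point. The authors aligned the reads to NCBI37 (mm9), kept non-redundant fragments and computed, for each of 646 loci, the deposited score, a log2 ratio of ChIP over input fragments with a pseudocount and fragment totals scaled to the median. Next to each score they deposited the percent of it that came from fragments with multiple matches. The submitters' processing notes also name bedtools. Scores only were used, so depth is unknown, and no per-sample column was left unmapped. Samples were grouped by antibody and time from their labels.

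Changes were tested with limma 3.58.1 in R 4.3.3 (4 levels, all 646 loci, two-sided), with Storey q-values (spline estimate of the null share). A locus counted as changed at q below 0.05 if above the authors' cutoff in at least 1 library of the 2 time points. The fit code was run on simulated scores with independent noise and changes added to 200 loci. These had no shift shared by a library, unlike the data, so the run checks the code and not the calls. Pairs of genes were compared by exact sign-flip permutation in Python 3.11.15. Sequences came from the NCBI37 genome and GENCODE vM1. All 7 genes were named, with 5 fixed type 3 genes, other RNA genes by counts, and the locus nearest to each gene by root mean square difference. Members and lists were chosen with earlier results of these data known. Alternatives are given in the closing section. RPB2, H3K4me3, H3 and input samples were not used here. The U6 coding sequence is not reported here.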

Additional observations from a re-analysis of the deposited data

How the results depend on the processing

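Both scalings below take the same amount from all loci of a library, and centring turned the sign of each change against TP0 except that of Rnu6-chr10b at TP48, which was already just under 0. Centring takes more than the largest change among the 7 genes at each time point, so these signs follow from the amount taken. With libraries centred on their median score, the changes at TP36, TP48 and TP60 against TP0 were -1.38, -1.37 and -1.70 for Rnu6-chr9, -0.82, -0.78 and -1.08 for Rnu6-chr10a, -1.80, -2.02 and -2.09 for Rnu6-chr10b, -1.44, -0.83 and -1.84 for Rnu6-chr12a, -1.17, -0.92 and -1.43 for Rnu6-chr12b, -0.97, -0.62 and -1.32 for Rnu6atac, and -0.80, -0.92 and -1.63 for Rn7sk, so 7 of 7 passed at each. With libraries shifted by the median deviation of loci, chosen after the data had been seen, negative values at TP36 were -0.50 for Rnu6-chr9, -0.93 for Rnu6-chr10b, -0.56 for Rnu6-chr12a, -0.29 for Rnu6-chr12b and -0.0939 for Rnu6atac. At TP48 they were -0.53 for Rnu6-chr9, -1.18 for Rnu6-chr10b, -0.0909 for Rnu6-chr12b and -0.0834 for Rn7sk, and at TP60 -0.78 for Rnu6-chr9, -0.16 for Rnu6-chr10a, -1.17 for Rnu6-chr10b, -0.92 for Rnu6-chr12a, -0.51 for Rnu6-chr12b, -0.40 for Rnu6atac and -0.72 for Rn7sk, with 0, 1 and 4 of 7 genes passing. All loci passing at TP36, TP48 and TP60 numbered 418, 449 and 453 when centred, 102, 127 and 220 when shifted, and 92, 133 and 176 with Benjamini-Hochberg, against 141, 247 and 279.

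At TP48, 0 genes passed with Benjamini-Hochberg, 1 with it over occupied loci alone, and 6 when only TP48 and TP0 were fitted (431 loci), the last giving 1 gene at TP60. The labels do not say what a replicate number shares across time points. The correlation of replicate deviations over 492 loci was 0.53 for TP0 with TP36, 0.30 for TP48 with TP60 and between -0.28 and 0.10 for the other pairs of time points, so a pairing by number was not taken as given, and with a replicate block 0, 1 and 0 genes and 167, 197 and 240 loci passed. Without single libraries, 0 to 3, 0 to 5 and 0 to 4 genes and 39 to 332, 47 to 323 and 102 to 387 loci passed, and TP60 against TP36 gave 0 to 1 locus. At TP36 the change without 1 library ranged from -0.0402 to 0.92 for Rnu6-chr9, -0.57 to 0.59 for Rnu6-chr10b, -0.22 to 0.97 for Rnu6-chr12a and -0.18 to 1.47 for Rnu6-chr12b. At TP48 it ranged from -0.58 to 0.58 for Rnu6-chr10b. At TP60 it ranged from -0.43 to 0.73 for Rnu6-chr10b, -0.19 to 1.00 for Rnu6-chr12a, -0.15 to 1.78 for Rnu6-chr12b and -0.11 to 1.33 for Rn7sk. Of the 21 pairs, 17 passed without any 1 library and 0 with Holm. With 2 libraries per time point, a lone library left in a time point is assumed to vary like the others, and the causes of these shifts were not tested.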
